A study of Mus musculus with 10 samples.

Results

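This account follows 9 genes that make, move, break down or sense GABA (gamma-aminobutyric acid, the main inhibitory transmitter of the forebrain) in the striatum of R6/2 mice. They were taken by name from the deposited expression table: Gad1, Gad2, Slc32a1, Slc6a11, Abat, Gabbr1, Gabbr2, Kctd12 and Kctd16. These genes were chosen with earlier results of these data known. All 9 were found among the 47632 gene rows, and all 9 passed the filter on low values that left 15905 genes for testing. The study sequenced total RNA of striatal tissue from hemizygous R6/2 mice and from isogenic wild-type mice, both harvested at 11 weeks of age, with 5 libraries in each group. R6/2 mice carry the first exon of human huntingtin with a long CAG tract, driven by the human gene's own promoter, and are a fast model of Huntington's disease. Neither sex nor treatment is given in the labels, and they do not say whether the libraries stem from separate animals. The p-values therefore measure only the spread between these libraries, which may be technical. The question is how transcript levels in the model differ from those of its controls at this age.

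GABA is made from glutamate by glutamate decarboxylase, which has a pair of forms: GAD67, encoded by Gad1, and GAD65, encoded by Gad2. The vesicular transporter VGAT (Slc32a1) loads it into synaptic vesicles, plasma membrane transporters of the Slc6 family take it back up, and GABA transaminase (Abat) starts its breakdown. The metabotropic GABA-B receptor is an obligate pair of the subunits GABBR1, which binds GABA, and GABBR2, which couples to the G protein, and KCTD proteins attach to GABBR2 and shape the time course of its signal. Most striatal neurons are spiny projection neurons, which release GABA, and interneurons and astrocytes also express parts of this machinery.

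Levels are FPKM (fragments per kilobase of transcript, scaled to the mapped fragments of the library) as the authors deposited them. Changes are R6/2 minus control on the log2(FPKM + 1) scale, tested with limma over the 15905 genes whose mean reached 1 FPKM. A gene was called at a Benjamini-Hochberg adjusted p under 0.05. The sequencing depth is unknown.

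R6/2 striatum had less of 6 of the 9 transcripts, and none of the 9 was called higher. Those for GABA synthesis (Gad1, Gad2), breakdown (Abat), glial uptake (Slc6a11), the GABA-binding receptor subunit (Gabbr1) and one auxiliary subunit (Kctd16) fell, whereas Slc32a1, Gabbr2 and Kctd12 did not pass. Over all tested genes, limma called 9.11% lower and 5.00% higher, or 7.12% and 9.55% after protein-coding genes were rescaled to 1 total, and 8.03% and 6.99% after quantile normalization. The members called lower numbered 4 after that rescaling, 5 after quantile normalization and 1 with a cortical neuron signal in the model, which is described with the tissue markers. The R6/2 values lay wholly below the controls for 5 members (Gad1, Gad2, Slc6a11, Gabbr1 and Kctd16), as they did for 8.58% of all tested genes, and wholly above for 0 members, where 4.50% of all tested genes did so. At an unadjusted p under 0.05, 0 members were higher and 7 lower, where 12% and 15.5% of all tested genes were. The median log2 change was -0.49 over the 9 members and 0.00 over all tested genes, and 8 of 9 members had a change below 0, compared with 49.8% of all tested genes. Because the members were chosen with earlier results known, these counts and shares describe the set and do not test it.

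The stretches just before the start sites are shown for the 3 members whose window holds no annotated exon. They set side by side a transporter gene and a receptor gene that fell, Slc6a11 and Gabbr1, and an auxiliary subunit gene that did not pass, Kctd12. Each is 250 bases upstream of the RefSeq start (GRCm38.p6), 5′ to 3′ on the gene's strand. Capitals mark matches, on either strand, to the CRE half-site TGACG, the E-box CANNTG, the GC box GGGCGG, the homeodomain core TAATTA or the TATA box TATAAA.
Slc6a11, chr6:114130991-114131240, plus strand: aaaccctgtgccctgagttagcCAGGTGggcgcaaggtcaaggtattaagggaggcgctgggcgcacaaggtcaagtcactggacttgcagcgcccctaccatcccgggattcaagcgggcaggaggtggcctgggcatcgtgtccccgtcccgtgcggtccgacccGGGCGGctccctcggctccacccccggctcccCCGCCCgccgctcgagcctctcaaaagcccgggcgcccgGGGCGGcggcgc
Gabbr1, chr17:37045716-37045965, plus strand: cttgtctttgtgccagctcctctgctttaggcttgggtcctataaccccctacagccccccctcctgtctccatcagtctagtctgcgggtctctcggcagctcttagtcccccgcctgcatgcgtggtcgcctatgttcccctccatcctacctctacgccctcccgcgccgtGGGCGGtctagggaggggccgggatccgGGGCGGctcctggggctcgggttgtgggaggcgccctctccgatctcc
Kctd12, chr14:102982638-102982887, minus strand: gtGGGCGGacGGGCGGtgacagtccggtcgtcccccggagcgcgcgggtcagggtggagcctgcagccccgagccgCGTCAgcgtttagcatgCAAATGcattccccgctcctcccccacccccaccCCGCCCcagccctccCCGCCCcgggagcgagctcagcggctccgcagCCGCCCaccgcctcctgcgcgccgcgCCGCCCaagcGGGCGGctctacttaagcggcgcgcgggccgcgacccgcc
The windows held 3, 2 and 7 GC box matches, in that order. Slc6a11 and Kctd12 each held 1 E-box match, Kctd12 held 1 CRE half-site match, and none of the 3 held a homeodomain core or TATA box match. No matches overlapped. Of 32851 RefSeq windows of this length, 66.2% held an E-box, 32.7% a GC box, 17.8% a CRE half-site, 12.4% a TATA box and 4.84% a homeodomain core match. The G and C content was 71.2% for Slc6a11, 66.0% for Gabbr1 and 77.6% for Kctd12, against a median of 52.4% over all windows. A match describes the letters only. RefSeq windows were matched for 7 of the 9 members.

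**Figure D1:**
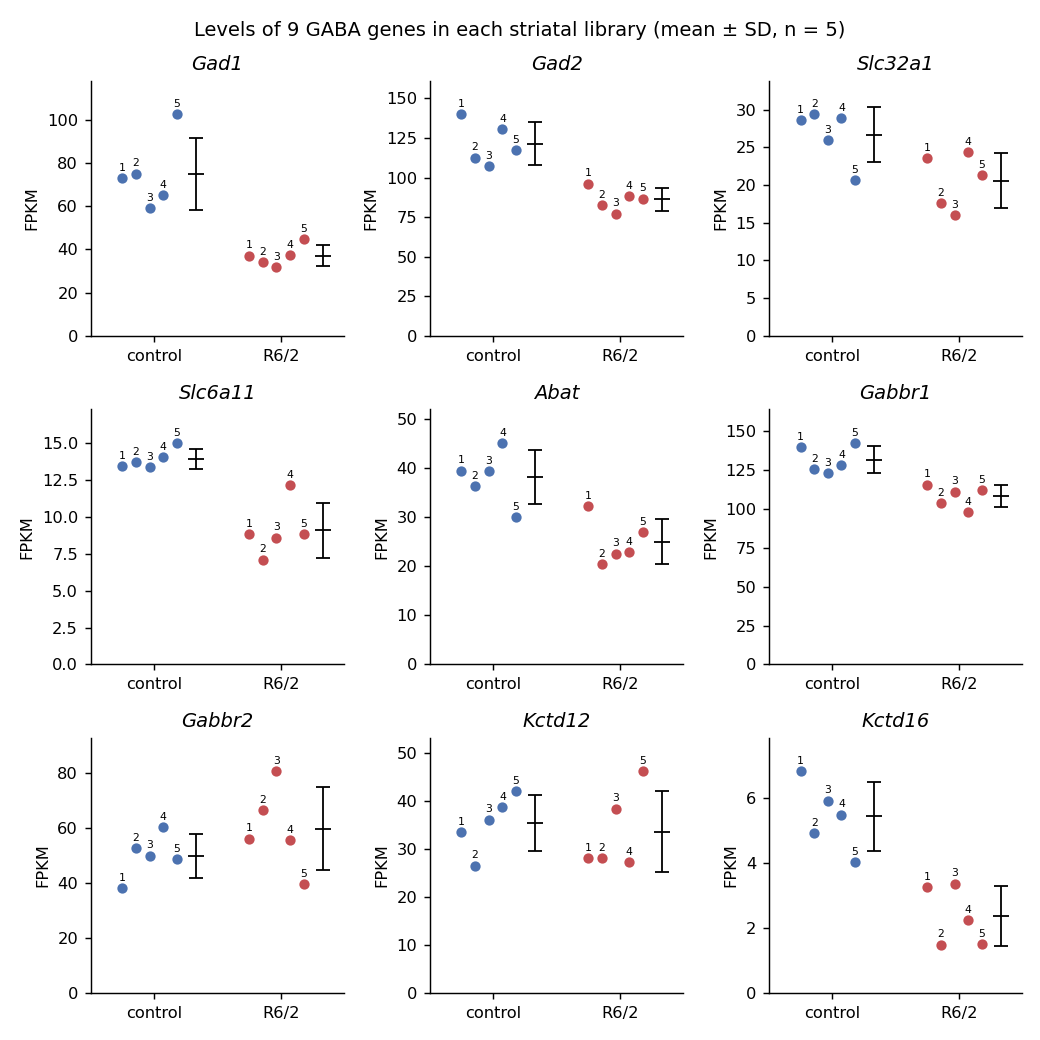
FPKM (vertical axes, from 0) of the 9 genes in the 5 control (blue) and 5 R6/2 (red) libraries. Points carry the library number, and the bar beside each group is the mean ± SD. Gad1 spans 59.0 to 102.5 FPKM in controls and 31.8 to 44.9 in R6/2 with no overlap. The groups of Slc32a1, Abat, Gabbr2 and Kctd12 overlap.

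Both glutamate decarboxylase transcripts fell, Gad1 by more than Gad2. Gad1 (ENSMUSG00000070880.10, GRCm38 chromosome 2, 70553072 to 70602014) was at 73.1, 75.1, 59.0, 65.2 and 102.5 FPKM in Controls 1 to 5. In R6/2 libraries 1 to 5 it was at 37.1, 34.3, 31.8, 37.4 and 44.9 FPKM. Every R6/2 library was below every control, and Control 5 stood highest. The mean fell from 75.0 ± 16.7 to 37.1 ± 4.93 FPKM (SD, n = 5), to 49.5% of control, with a log2 change of -0.98 (SE 0.15, limma adjusted p = 0.00196). It was called under each of the 20 alternative settings tried, with log2 changes between -1.06 and -0.86.

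Gad2 (ENSMUSG00000026787.3, chromosome 2, 22622205 to 22693874) was at 140.0, 113, 107, 130.4 and 117 FPKM in Controls 1 to 5 and at 96.2, 82.4, 77.2, 88.4 and 86.8 FPKM in R6/2 libraries 1 to 5. Again the groups did not overlap. The mean fell from 121.5 ± 13.4 to 86.2 ± 7.07 FPKM (SD, n = 5), to 71.0% of control, a log2 change of -0.49 (SE 0.09, limma adjusted p = 0.00674).

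The Gad1 transcript lost more than Gad2. Within each library, where any scaling between libraries cancels, the ratio of Gad1 to Gad2 FPKM was 0.522, 0.666, 0.550, 0.4999 and 0.874 in Controls 1 to 5. It was 0.386, 0.416, 0.412, 0.422 and 0.518 in R6/2 libraries 1 to 5, so that only R6/2 5 reached into the control range. The log2 ratio was lower in R6/2 by 0.51 (log2 difference -0.51, SE 0.16, exact permutation test over all splits into 5 and 5, two-sided, p = 0.0159, Benjamini-Hochberg adjusted over 9 ratios 0.0476). With 1 library left out the difference stayed between -0.58 and -0.38. The smallest possible p was 0.00794 with all libraries and also with 1 left out. It cannot pass on its own after adjustment over the 9 ratios, so each call depends on the p-values of other ratios. Gad1 to Gad2 passed in 1 of 10 leave-outs (exact permutation test, adjusted p = 0.0357 to 0.107).

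Slc32a1 encodes VGAT, the vesicular transporter of GABA, and its change did not pass. Slc32a1 (ENSMUSG00000037771.11, chromosome 2, 158610767 to 158615748) was at 28.6, 29.4, 25.95, 28.9 and 20.6 FPKM in Controls 1 to 5. The R6/2 libraries 1 to 5 held 23.6, 17.6, 16.0, 24.3 and 21.3 FPKM. The overlap came from Control 5, the lowest control. Means were 26.7 ± 3.64 and 20.6 ± 3.64 FPKM (SD, n = 5, a log2 change of -0.37 with an SE of 0.14, limma adjusted p = 0.119). Without Control 5 the log2 change was -0.45 and passed (limma adjusted p = 0.0464, with 0.0464 to 0.689 across all alternatives). The Slc32a1 to Gad2 ratio was 0.221 ± 0.0329 in controls and 0.2375 ± 0.0274 in R6/2 (SD, n = 5), a log2 difference of 0.11 (SE 0.12, exact permutation test, two-sided, p = 0.421, adjusted 0.421). Exons of Slc32a1 overlap those of Gm14205 on the other strand, and no source used here gives the strand setting of the counting, so reads of the pair cannot be told apart.

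Abat (ENSMUSG00000057880.12, chromosome 16, 8513429 to 8621568), the mitochondrial transaminase that degrades GABA, fell by 0.59 on the log2 scale. It was at 39.55, 36.4, 39.4, 45.2 and 30.1 FPKM in Controls 1 to 5 and at 32.2, 20.5, 22.6, 23.0 and 26.96 FPKM in R6/2 libraries 1 to 5. R6/2 1 lay above Control 5, and otherwise the groups were apart. Means were 38.1 ± 5.51 and 25.05 ± 4.655 FPKM (SD, n = 5, SE of the log2 change 0.14, limma adjusted p = 0.0198). The call was lost after rescaling of protein-coding genes (log2 change -0.48, limma adjusted p = 0.05625). Abat relative to Gad1 was 0.536 ± 0.161 in controls and 0.678 ± 0.116 in R6/2, a difference that did not pass (log2 difference 0.39, SE 0.25, exact permutation test, p = 0.151, adjusted 0.226).

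Slc6a11 encodes GAT3, the GABA transporter found mainly on astrocytes, and it fell. Slc6a11 (ENSMUSG00000030307.8, chromosome 6, 114131241 to 114249952) was nearly constant in Controls 1 to 5, at 13.45, 13.7, 13.4, 14.1 and 15.05 FPKM. R6/2 libraries 1 to 5 had 8.825, 7.12, 8.61, 12.2 and 8.84 FPKM, all below the controls, with R6/2 4 nearest to them. The mean fell from 13.9 ± 0.676 to 9.12 ± 1.86 FPKM (SD, n = 5, a log2 change of -0.58 with an SE of 0.12, limma adjusted p = 0.0098).

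Among 11 astrocyte markers, 3 were called lower (Slc1a2, Gja1 and Sox9), 0 higher and 8 did not pass, beside 9.11% lower and 5.00% higher over all tested genes. At an unadjusted p under 0.05, 7 were lower and 0 higher, beside 15.5% and 12%. Their median log2 change was -0.38, where that of all tested genes was 0.00. The summed level of the 11 was 915.5 to 1126 FPKM in controls and 679 to 802 in R6/2. Most of that sum came from Slc1a2 (means 392 and 212 FPKM) and Aldoc (500 and 418, limma adjusted p = 0.172). Set against Slc1a3, an astrocyte glutamate transporter gene, Slc6a11 had a log2 difference of -0.25 (SE 0.20) that did not pass (exact permutation test, p = 0.262, adjusted 0.337). The part of the astrocyte markers in the result for Slc6a11 was not tested. In bulk tissue, fewer cells of a type and less RNA per cell cannot be told apart.

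From a list of 13 genes for glutamine and glutamate supply and for later steps of GABA breakdown, 12 were tested, 1 fell and 0 rose, beside 9.11% and 5.00% of all tested genes. At an unadjusted p under 0.05, 3 were lower and 3 higher, beside 15.5% and 12%. The gene that fell was Glul, the glutamine synthetase of astrocytes, from 220 ± 11.75 to 145 ± 13.8 FPKM (SD, n = 5, a log2 change of -0.60 with an SE of 0.08, limma adjusted p = 0.000876). Exons of Teddm2, on the other strand, overlap Glul. Aldh5a1, the dehydrogenase that acts after Abat, was at 20.9 ± 1.82 and 17.4 ± 1.73 FPKM (log2 change -0.25, limma adjusted p = 0.087). The minor GABA transporters Slc6a12 and Slc6a13 were below the filter, with means of 0.239 and 0.745 FPKM in controls and 0.160 and 0.516 in R6/2.

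**Figure D2:**
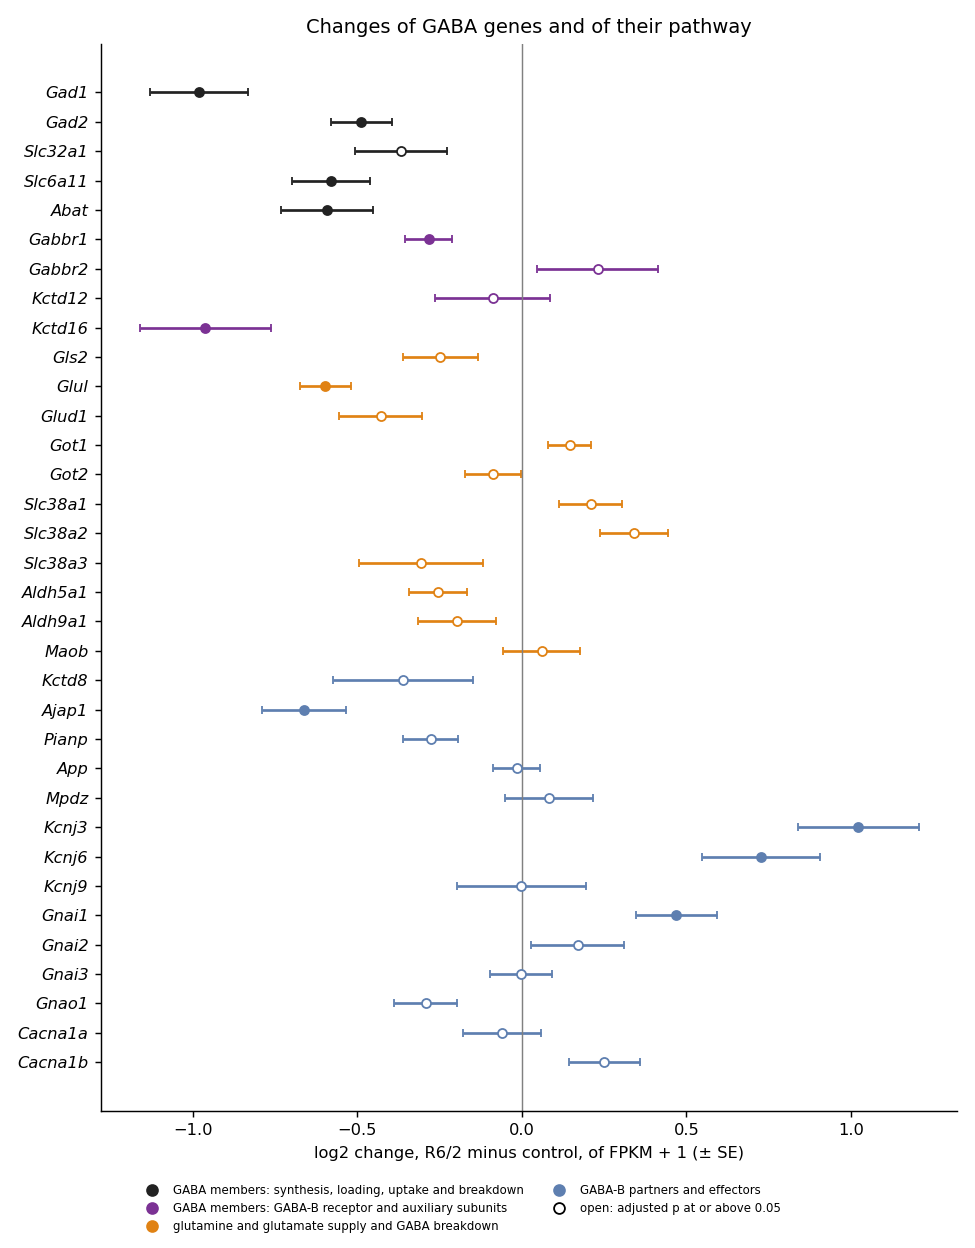
Log2 change (R6/2 minus control, horizontal axis, ± SE) of the 9 members and of tested pathway genes, with filled points for an adjusted p under 0.05. Gad1 and Kctd16 lie farthest to the left, at -0.98 and -0.96, and Kcnj3 farthest to the right, at 1.02.

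The GABA-B receptor subunits differed in what was called: Gabbr1 fell, and its obligate partner Gabbr2 did not pass. Gabbr1 (ENSMUSG00000024462.17, chromosome 17, 37045966 to 37075067) was at 139.9, 126, 123, 128 and 143 FPKM in Controls 1 to 5 and at 116, 104, 111, 98.25 and 112 FPKM in R6/2 libraries 1 to 5. All R6/2 values were below all control values, and the loss was small. The mean went from 132 ± 8.82 to 108 ± 7.10 FPKM (SD, n = 5), to 82.1% of control (a log2 change of -0.28 with an SE of 0.07, limma adjusted p = 0.0273). This call was lost without R6/2 2 (-0.27, limma adjusted p = 0.0508), after quantile normalization (-0.13, 0.2185) and after rescaling of protein-coding genes (-0.17, 0.139).

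Gabbr2 (ENSMUSG00000039809.10, chromosome 4, 46662305 to 46991873) was at 38.2, 52.5, 49.8, 60.1 and 48.4 FPKM in Controls 1 to 5. It was at 56.0, 66.4, 80.5, 55.4 and 39.6 FPKM in R6/2 libraries 1 to 5. The groups overlapped widely, with R6/2 3 highest and Control 1 lowest. Means were 49.8 ± 7.92 and 59.6 ± 15.1 FPKM (SD, n = 5, a log2 change of 0.23 with an SE of 0.18, limma adjusted p = 0.478). The change was 0.11 without R6/2 3, 0.14 without Control 1 and 0.37 without R6/2 5, and none of these passed (limma adjusted p = 0.722, 0.684 and 0.168).

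The ratio of Gabbr1 to Gabbr2 FPKM was 3.665, 2.39, 2.47, 2.13 and 2.945 in Controls 1 to 5 and 2.07, 1.56, 1.38, 1.77 and 2.83 in R6/2 libraries 1 to 5. Means were 2.72 ± 0.604 and 1.92 ± 0.569 (SD, n = 5). Only R6/2 5 lay within the control range, and the difference did not pass over the 9 ratios (log2 difference -0.52, SE 0.23, exact permutation test, two-sided, p = 0.0476, adjusted 0.0857). Without R6/2 5 it was -0.67 and passed (adjusted p = 0.0357, exact permutation test). That was 1 of 10 leave-outs, and the other 9 did not pass (adjusted p up to 0.171).

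Of the auxiliary subunits, Kctd16 fell and Kctd12 did not pass. KCTD12 speeds the desensitization of GABA-B currents, whereas KCTD16 does not. Kctd16 (ENSMUSG00000051401.6, chromosome 18, 40256962 to 40531630) was at 6.84, 4.92, 5.935, 5.50 and 4.025 FPKM in Controls 1 to 5 and at 3.26, 1.49, 3.37, 2.25 and 1.499 FPKM in R6/2 libraries 1 to 5. All R6/2 libraries were below all controls. The mean fell from 5.445 ± 1.06 to 2.37 ± 0.914 FPKM (SD, n = 5), to 43.6% of control (a log2 change of -0.96 with an SE of 0.20, limma adjusted p = 0.0108). With levels this low the log2 change depended on the pseudocount, -1.225 with 0.1 FPKM and -0.51 with 5 FPKM, and both were called (limma adjusted p = 0.0124 and 0.00991). Exons of Kctd16 overlap those of the antisense gene AC098707.1.

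Kctd12 (ENSMUSG00000098557.1, chromosome 14, 102976581 to 102982637) was at 33.5, 26.5, 36.1, 38.7 and 42.05 FPKM in Controls 1 to 5 and at 28.1, 28.1, 38.4, 27.2 and 46.2 FPKM in R6/2 libraries 1 to 5. R6/2 5 was the highest of all 10 libraries, and the group ranges overlapped almost fully. Means were 35.4 ± 5.87 and 33.6 ± 8.43 FPKM (SD, n = 5, a log2 change of -0.09 with an SE of 0.17, limma adjusted p = 0.792). After rescaling of protein-coding genes the change was 0.02 (limma adjusted p = 0.948). Exons of the noncoding genes Gm26778, on the other strand, and Mir5130 overlap Kctd12.

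Per Gabbr2, the level of Kctd16 was 0.179, 0.0937, 0.119, 0.0915 and 0.0831 in Controls 1 to 5 and 0.0581, 0.0224, 0.0419, 0.0406 and 0.0379 in R6/2 libraries 1 to 5. The groups did not overlap (log2 difference -1.5, SE 0.30, exact permutation test, two-sided, p = 0.00794, the smallest it can give, adjusted 0.0476). The ratio of Kctd12 to Kctd16 FPKM was 6.77 ± 2.21 in controls and 16.4 ± 8.92 in R6/2 (SD, n = 5, log2 difference 1.17, SE 0.37, exact permutation test, p = 0.0159, adjusted 0.0476). With 1 library left out, the difference stayed between -1.65 and -1.31 for Kctd16 to Gabbr2 and between 0.91 and 1.37 for Kctd12 to Kctd16. Kctd16 to Gabbr2 passed in 2 of 10 leave-outs and Kctd12 to Kctd16 in 1 of 10. Kctd12 per Gabbr2 was 0.724 ± 0.157 and 0.612 ± 0.312 (SD, n = 5) and did not pass (log2 difference -0.33, SE 0.30, exact permutation test, p = 0.302, adjusted 0.339). Without R6/2 5 that difference was -0.59 and passed (adjusted p = 0.0357, exact permutation test). That was 1 of 10 leave-outs, and the other 9 did not pass (adjusted p up to 0.554).

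**Figure D3:**
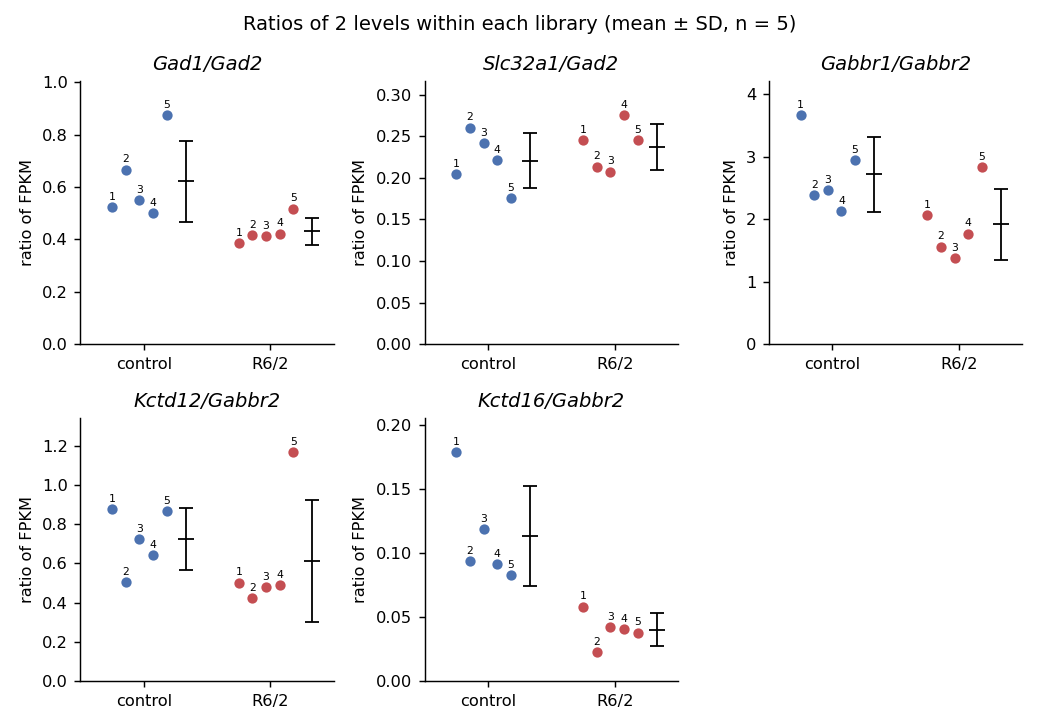
Ratio of the FPKM of a pair of genes within each library (vertical axes, from 0) for 5 of the 9 ratios, control in blue and R6/2 in red, with library numbers and the mean ± SD. Kctd16 per Gabbr2 separates the groups fully (0.0831 to 0.179 against 0.0224 to 0.0581), and R6/2 5 lies apart from the other R6/2 libraries in Kctd12 per Gabbr2, at 1.17.

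Of 16 listed partners and effectors of the GABA-B receptor 14 were tested, of which 1 fell, 3 rose and 10 did not pass, beside 9.11% lower and 5.00% higher over all tested genes. At an unadjusted p under 0.05, 3 were lower and 4 higher, beside 15.5% and 12%. Ajap1, a membrane protein that binds GABBR1, fell from 14.0 ± 1.79 to 8.55 ± 1.49 FPKM (SD, n = 5, a log2 change of -0.66 with an SE of 0.13, limma adjusted p = 0.00739). Pianp, which also binds GABBR1, was at 55.1 ± 4.32 and 45.35 ± 4.065 FPKM (log2 change -0.28, limma adjusted p = 0.0536). Kcnj3, Kcnj6 and Kcnj9 encode subunits of the G protein-gated potassium channels that open on GABA-B signalling. Kcnj3 rose from 8.40 ± 2.12 to 17.9 ± 3.62 FPKM (a log2 change of 1.02 with an SE of 0.18, limma adjusted p = 0.00512) and Kcnj6 from 3.18 ± 1.07 to 5.745 ± 0.653 FPKM (0.73, SE 0.18, 0.0243), while Kcnj9 was at 10.03 ± 1.969 and 10.16 ± 2.666 FPKM and did not pass (log2 change -0.00, limma adjusted p = 0.9976). Gnai1, an inhibitory G protein subunit, rose from 66.2 ± 11.8 to 91.5 ± 10.3 FPKM (a log2 change of 0.47 with an SE of 0.12, limma adjusted p = 0.0316). The call of Gnai1 was lost without Control 1, 2, 3 or 4 or R6/2 2 or 3 (limma adjusted p = 0.0648 to 0.0718), and that of Kcnj6 without Control 1 or 3 or R6/2 1, 2, 3 or 4 (0.051 to 0.0609). Kctd8, a further auxiliary subunit, was at 4.815 ± 1.12 and 3.62 ± 1.41 FPKM and did not pass (log2 change -0.36, limma adjusted p = 0.312). Exons of Kcnj3 and Kcnj6 overlap those of genes on the other strand.

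The order of the levels, which FPKM allows since it is scaled by length, was in controls Gabbr1 (132 FPKM), Gad2 (121.5), Gad1 (75.0), Gabbr2 (49.8), Abat (38.1), Kctd12 (35.4), Slc32a1 (26.7), Slc6a11 (13.9) and Kctd16 (5.445). Neighbours were clear of the spread, with every library of the higher gene above every library of the lower, for Gad2 over Gad1, Slc32a1 over Slc6a11 and Slc6a11 over Kctd16, and not for the other neighbours. Gabbr1 was above Gad2 in 3 of 5 control libraries only. In R6/2 the order was Gabbr1 (108), Gad2 (86.2), Gabbr2 (59.6), Gad1 (37.1), Kctd12 (33.6), Abat (25.05), Slc32a1 (20.6), Slc6a11 (9.12) and Kctd16 (2.37). Gad1 was above Gabbr2 in 5 of 5 controls and the mean of Gabbr2 above that of Gad1 in R6/2, with Gabbr2 higher in 4 of 5 libraries.

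Markers of several cell types moved too. Over all tested genes limma called 9.11% lower and 5.00% higher, the shares to set beside each count below. All 16 markers of spiny projection neurons fell (median log2 change -2.20). Their summed level was 2132 to 2699 FPKM in controls and 301 to 496 in R6/2. Of 6 tested GABAergic interneuron markers 4 fell (Sst, Npy, Nos1 and Cox6a2), while Pvalb and Lhx6 did not pass (limma adjusted p = 0.712 and 0.0655). All 11 listed genes of that type summed to 329 to 590 FPKM in controls and 219 to 253 in R6/2, with Calb2 and Pthlh listed at 0 in some libraries. Most of that sum was Sst, at means of 377 and 207 FPKM. Of 4 tested cholinergic interneuron markers 3 fell, and of 8 myelin markers 5 fell. The summed level of 5 listed choroid plexus markers ran from 13.8 to 542.5 FPKM in controls and from 26.8 to 459 in R6/2, and 0 of 4 tested were called. Pan-neuronal genes, 7 tested, had 2 lower, 1 higher and 4 that did not pass. Microglia markers had 1 of 7 tested lower, and among 3 tested thalamic neuron markers 1 rose. Endothelial and mural cell markers had 0 of 5 called, oligodendrocyte precursor markers 0 of 2 and meningeal fibroblast markers 0 of 1. The part of these markers in the results for Gad1, Gad2, Abat and Kctd16 was not tested. These marker lists and the pathway lists were chosen with earlier results of these data known.

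The summed level of cortical neuron markers was higher in R6/2 libraries. Of 7 tested cortical glutamatergic markers 2 rose, Neurod2 among them, and 0 fell, beside 5.00% higher and 9.11% lower over all tested genes. At an unadjusted p under 0.05, 4 were higher and 0 lower, beside 12% and 15.5%. Neurod1 and Emx1 were listed at 0 in some libraries. The summed level of all 9 listed genes, these among them, was 27.7 to 61.1 FPKM in controls and 61.1 to 110 in R6/2. The mean log2(FPKM + 1) over the 7 was 2.21, 3.00, 2.11, 3.03 and 2.76 in Controls 1 to 5 and 3.11, 3.53, 3.81, 3.02 and 3.16 in R6/2 libraries 1 to 5. With that mean as a term in the limma model, Gad1 was the only member still called (log2 change -0.98, adjusted p = 0.0469), and over all genes 3.33% were lower and 0.773% higher.

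The other changes in that model kept their sign apart from Gabbr2. Gad2 was at -0.41 (limma adjusted p = 0.149), Slc6a11 at -0.49 (0.183), Abat at -0.48 (0.286), Gabbr1 at -0.29 (0.218) and Kctd16 at -0.87 (0.173). Gabbr2 went from 0.23 to -0.16 (limma adjusted p = 0.768). Among the partner genes, Kcnj3 stayed past the threshold at 0.47 (limma adjusted p = 0.0186), while Kcnj6 (0.30, 0.464), Gnai1 (0.29, 0.440) and Ajap1 (-0.74, 0.0686) did not. The cortical marker mean was higher in R6/2 than in controls with only R6/2 4 within the control range, and the part of cortical tissue in the results was not tested.

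**Figure D4:**
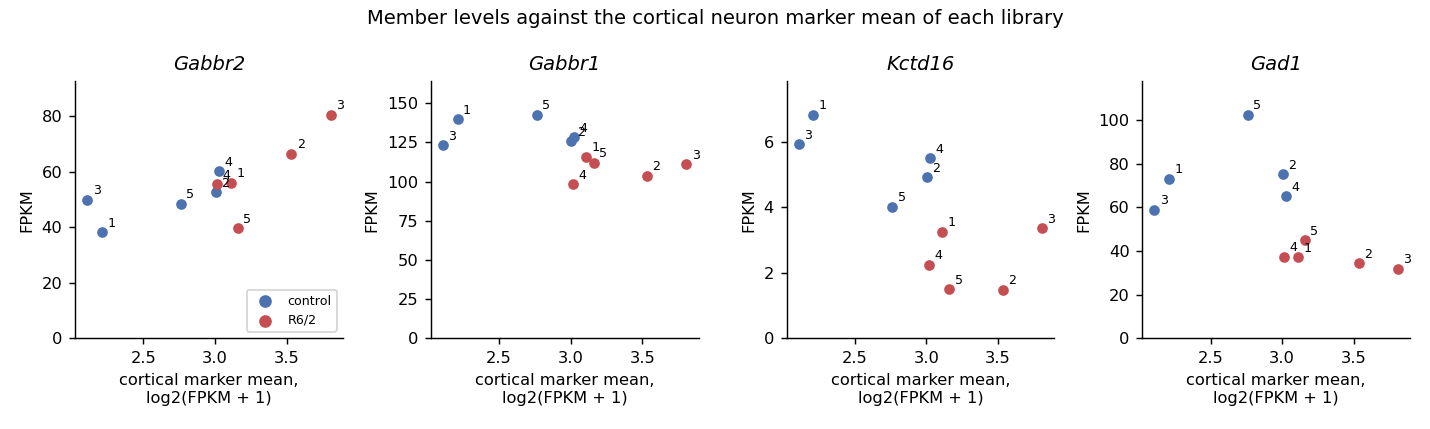
FPKM of Gabbr2, Gabbr1, Kctd16 and Gad1 (vertical axes, from 0) against the mean log2(FPKM + 1) of 7 cortical neuron markers (horizontal axis), 1 point a library, control in blue and R6/2 in red. The marker mean spans 2.11 to 3.03 in controls and 3.02 to 3.81 in R6/2, so the groups share only a narrow part of the axis.

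**Figure D5:**
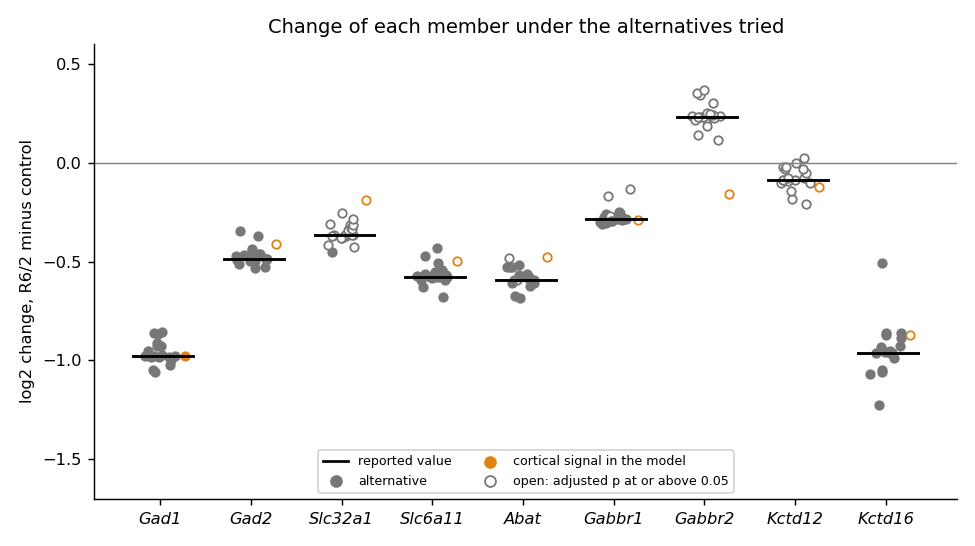
Log2 change (vertical axis, R6/2 minus control) of each member under the settings tried. The black line is the reported value, orange points are the model that holds the cortical signal, and open points did not pass. Gad1 stays between -1.06 and -0.86, and Gabbr2 runs from -0.16 to 0.37.

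For each member, the 3 tested protein-coding genes with the most similar profile over the 10 libraries were sought among 11683 candidates, by the mean absolute difference of centred log2(FPKM + 1). Gad1 was nearest to Smarcd1 (0.126), Gpr155 (0.128) and Opalin (0.130), and Gad2 to Add1 (0.069), Dchs2 and Aif1l. Slc6a11 was nearest to Nmral1 (0.080) and Pde8b, Abat to Camsap1 (0.074), C2cd2l and Neurl1a, and Slc32a1 to Lpcat2 (0.085), Lsm14b and Sfxn3. Gabbr1 was nearest to Brinp1 (0.059), Scg3 and Stxbp5l, and Gabbr2 to Xndc1 (0.098), Tcf25 and Zfp13. Kctd12 was nearest to Pde4dip (0.101), Usp12 and Coq9, and Kctd16 to Crybg3 (0.118), Syt2 and Gnb2. The group difference itself is part of each profile.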

How the data were processed

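Striatal RNA of 5 control and 5 R6/2 libraries was sequenced, and groups and replicate numbers were taken from the sample labels. The authors deposited 1 table of FPKM values for 47632 genes, made with STAR 2.4.0, Cufflinks and Cuffdiff on GRCm38, per the submitters' processing notes. Each sample column matched 1 library, with 0 columns unmatched. A further workbook named in the labels was not used here. Low values did not resolve into whole reads, so depth and counting error are unknown. Symbols and positions came from GENCODE M21 (GRCm38), which paired 47220 identifiers with a symbol, and upstream sequences from RefSeq (GRCm38.p6).

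The change of each gene was fitted with limma 3.58.1 (R 4.3.3) on log2(FPKM + 1), with a mean-variance trend, over the 15905 genes whose mean reached 1 FPKM. P-values were adjusted by Benjamini-Hochberg over all of them at a threshold of 0.05. A log2 change on this scale understates the change of low genes. The 9 ratios within a library were tested with a two-sided exact permutation test over 252 splits, whose smallest p is 0.00794. The fit was tested on simulated data. Results for some genes, 1 of the ratios among them, are not reported here.

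Named genes are all members, the genes of the ratios, the pathway genes past the threshold and, where reported, the 3 nearest profiles of each member. Pathway genes that did not pass, and the markers, were named after their values were seen. The members and lists were chosen with earlier results of these data known. Alternatives were other pseudocounts, filters, weights, trend, scalings, a replicate block, a cortical covariate and leaving out each library.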

Additional observations from a re-analysis of the deposited data

Results flagged for a closer look

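In the ratio of Gad1 to Gad2, R6/2 5 stood above the other R6/2 libraries at 0.518, with the next at 0.422 and the lowest at 0.386, a gap of 0.724 of the range. In the ratio of Kctd12 to Gabbr2, R6/2 5 was at 1.17, with the next at 0.501 and the lowest at 0.423, a gap of 0.894 of the range. Both exceed Dixon's critical value of 0.71 for 5 samples. Of 36 groups examined 2 did so, where chance gives about 1 in 20.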

How the results depend on the processing

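The number of members called lower was 6 and ranged from 5 to 7 when single libraries were left out, and adding the cortical signal as a term left 1. It was 4 with the replicate block, which lost Abat (limma adjusted p = 0.0641) and Gabbr1 (0.064), and among the pathway genes Gnai1 (0.105) and Kcnj6 (0.0545), and 4 after rescaling of protein-coding genes, moving the all-gene median by 0.0926. The protein-coding FPKM total of each R6/2 library was smaller than that of each control. The largest R6/2 total was 202906 (R6/2 2) and the smallest control total 211209 (Control 4). Rescaling took the log2 change of Gad2 from -0.49 to -0.37, still called, and that of Gabbr1 from -0.28 to -0.17. The cause of the smaller totals and of the lost calls was not tested. No member was called higher under any setting. Gabbr2 reversed to -0.16 with the cortical signal, and Kctd12 to 0.024 after rescaling. Over all genes limma called 1449 lower and 795 higher, 975 and 370 with the replicate block, 530 and 123 with the cortical signal, 1133 and 1520 after rescaling, 1277 and 1111 after quantile normalization, and 1193 to 1518 and 576 to 890 without single libraries. Same-numbered libraries did not deviate together (correlations from -0.0528 to 0.0495), and only number 5 correlated best with its own, so the numbers were not taken as pairs.

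Of the ratios, sign flips over the replicate block, which cannot give a p below 0.0625, left the differences of Gad1 to Gad2 (-0.51), Kctd12 to Kctd16 (1.17) and Kctd16 to Gabbr2 (-1.5) at an adjusted p of 0.141. Leaving out single libraries gave -0.58 to -0.38, 0.91 to 1.37 and -1.65 to -1.31 for these 3. It gave -0.67 to -0.41 for Gabbr1 to Gabbr2 and -0.59 to -0.22 for Kctd12 to Gabbr2. With no depth, noise at low levels such as that of Kctd16 cannot be bounded.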
